A study of Homo sapiens with 18 samples.

Results

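The SR splicing factors of this study were 10 genes, SRSF1, SRSF2, SRSF3, SRSF4, SRSF5, SRSF6, SRSF7, SRSF10, SRSF11 and TRA2A, of the 23536 gene-level features measured. They were selected on their measured values in 7 d hypoxia against normoxia, so those values are given as a description and are not tested. Each gene was found by its Entrez identifier, and all 10 had a feature. RNA of the human embryonic stem cell (hESC) lines H9, HS360 and HS401 was hybridised to 18 Human Exon arrays. The 6 groups were hypoxia (4% O2) and normoxia (21% O2) at 2 h, at 24 h and at 7 d, with 3 arrays in each, 1 per line. No other treatment was given, and all cells grew without feeders on Matrigel in mTeSR1 medium, after stock culture on human foreskin fibroblasts. By the paper, plates for 24 h spent 2 days in normoxia before transfer to hypoxia, and plates for 2 h spent 3 days. Plates for 7 d were moved 1 day after seeding. The 2 h and 24 h cultures were therefore of similar total age, and the 7 d cultures were older. The 3 arrays of a group are thus 3 different lines with 1 array each, and their number limits the precision. Levels are hybridisation intensities, which can be compared between arrays for 1 gene but not between genes.

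SR proteins bind short sequences in exons through RNA recognition motifs, and their arginine- and serine-rich tails help U1 snRNP and U2AF to recognise the neighbouring splice sites. The tails are phosphorylated by the SRPK and CLK kinases, which sets where the proteins reside and when they act. Most SR genes also carry a conserved exon with an early stop codon, whose inclusion sends the transcript to nonsense-mediated decay and lowers the gene's own output. The array values here are summarised over all probes of a gene, so such isoforms were not separated.

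At 7 d the SRSF7, SRSF3 and SRSF6 transcripts stood lower in hypoxia than in normoxia in all 3 lines, SRSF7 at 0.506, SRSF3 at 0.574 and SRSF6 at 0.636 of the normoxia level. The other 7 genes ranged from 0.751 for SRSF10 to 1.08 for TRA2A. At 2 h and 24 h none of the 10 passed the test between the oxygen levels. To show the regions in which transcription of the 3 lowest genes begins, the 250 bases before their start sites are given on the gene's strand, from RefSeq on GRCh38.p14. SRSF7 lies at chr2:38751495-38751744 (minus strand), SRSF3 at chr6:36594112-36594361 (plus strand) and SRSF6 at chr20:43457646-43457895 (plus strand). Capitals mark the core of the hypoxia-inducible factor (HIF) site, ACGTG or GCGTG on either strand, and the core of the cyclic AMP response element, TGACGT on either strand.
SRSF7: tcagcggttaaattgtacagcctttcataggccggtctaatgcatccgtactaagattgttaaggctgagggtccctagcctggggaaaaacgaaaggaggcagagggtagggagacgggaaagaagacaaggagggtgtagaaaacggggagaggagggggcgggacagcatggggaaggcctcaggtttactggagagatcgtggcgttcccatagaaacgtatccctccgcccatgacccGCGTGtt
SRSF3: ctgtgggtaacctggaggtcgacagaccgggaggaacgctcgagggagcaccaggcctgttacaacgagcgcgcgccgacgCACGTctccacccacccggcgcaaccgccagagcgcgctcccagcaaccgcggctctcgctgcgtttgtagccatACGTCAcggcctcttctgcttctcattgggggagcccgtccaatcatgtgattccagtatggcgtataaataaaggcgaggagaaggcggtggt
SRSF6: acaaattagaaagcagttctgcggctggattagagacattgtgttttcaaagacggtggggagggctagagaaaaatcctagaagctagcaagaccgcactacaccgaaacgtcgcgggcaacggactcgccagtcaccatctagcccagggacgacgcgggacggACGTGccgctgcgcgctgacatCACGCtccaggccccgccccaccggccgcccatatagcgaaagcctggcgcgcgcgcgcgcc
RefSeq windows were at hand for 8 of the 10 genes, 10 windows in all because SRSF7 and SRSF11 have 2 start sites each. The 2 windows of SRSF7 overlap and hold the same HIF core, which is counted in both. A HIF core was present in 8 of the 10 windows, against 43.2% of 35116 promoter windows of the same length, and the cyclic AMP core in 3 of the 10, against 7.1%. The E-box CACGTG, which contains the HIF core ACGTG, was found in 0 of the 10 and in 6.34% of all windows. The window of SRSF1 held 5 HIF cores and that of SRSF4 held 2, with log2 fold changes at 7 d of -0.11 and 0.04. SRSF7 and SRSF3 held 1 per window and SRSF6 held 2. G and C made up 52.0% to 73.6% of the 10 windows, and the comparison was not matched for this share. The cores are matches of letters, and binding was not measured.

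SRSF3 and SRSF7 are small shuttling SR proteins that also hand spliced mRNA to the export receptor NXF1. SRSF7 had intensities of 422, 605 and 491 in H9, HS360 and HS401 after 7 d of hypoxia, against 1009.9, 955 and 1003 in the normoxia cultures. The groups did not overlap, and H9 had the lowest hypoxia value. The log2 fold change was -0.98 (standard error 0.20), and H9 with -1.26 and HS401 with -1.03 lay beyond HS360 with -0.66. SRSF3 had 898, 1296 and 1333 in hypoxia, against 1978, 1833 and 2257 in normoxia, in the same order of lines. Its groups did not overlap either, and again H9 was lowest in hypoxia. The log2 fold change of SRSF3 was -0.80 (standard error 0.21). HS360 had the smallest difference here too, -0.50, against -1.14 for H9 and -0.76 for HS401.

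SRSF4, SRSF5 and SRSF6 are SR proteins with a pair of RNA recognition motifs. SRSF6 had 333, 471 and 274 in hypoxia, against 553, 676 and 449 in normoxia at 7 d. Each line was lower in hypoxia, and the log2 differences were -0.73 for H9, -0.71 for HS401 and -0.52 for HS360. The groups overlapped, with HS401 low and HS360 high at both oxygen levels. The log2 fold change was -0.65 (standard error 0.16). SRSF5 had 861, 1269.5 and 776 in hypoxia, against 1287, 1361 and 929 in normoxia, a log2 fold change of -0.31 (standard error 0.16) with overlapping groups. SRSF4 had 879, 898 and 1053 in hypoxia, against 891, 765 and 1113 in normoxia, with a log2 fold change of 0.04 (standard error 0.13). SRSF4 values overlapped, with HS401 high at both oxygen levels.

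SRSF1, a founding member of the family, had 1978, 2436 and 1641 in hypoxia, against 2504, 2469.5 and 1618 in normoxia at 7 d. H9 differed by -0.34 on the log2 scale, HS360 by -0.02 and HS401 by 0.02, and the log2 fold change was -0.11 (standard error 0.19). SRSF2, which stays mostly in the nucleus and marks nuclear speckles, had 1618, 1596 and 1068 in hypoxia, against 2019.8, 2091 and 1235 in normoxia. It was lower in hypoxia in all 3 lines, with a log2 fold change of -0.31 (standard error 0.16), and HS401 was low at both oxygen levels so that the groups overlapped.

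SRSF10 can repress splicing when dephosphorylated, SRSF11 is an SR-like protein, and TRA2A is a homologue of the fly sex determination factor Transformer 2. SRSF10 had 331, 443 and 402 in hypoxia, against 530.1, 541 and 484 in normoxia at 7 d, without overlap and with a log2 fold change of -0.41 (standard error 0.20). SRSF11 had 1075, 962 and 1243 in hypoxia, against 1144, 1024 and 1082 in normoxia, with a log2 fold change of 0.01 (standard error 0.12). TRA2A had 584, 541 and 630.3 in hypoxia, against 609, 519 and 502 in normoxia, with a log2 fold change of 0.11 (standard error 0.17). The values of SRSF11 and TRA2A overlapped between the oxygen levels.

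**Figure D1:**
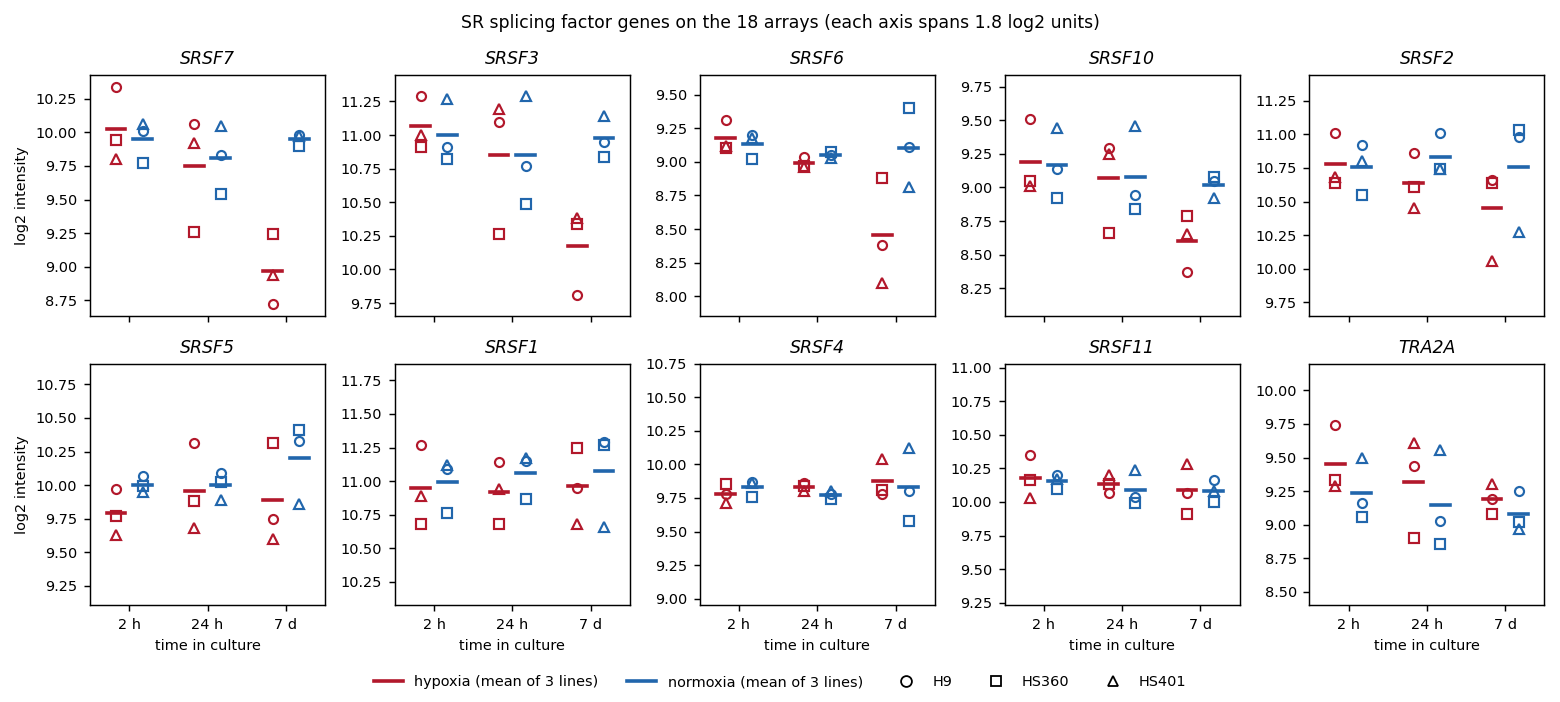
Log2 intensity of the 10 SR genes on the 18 arrays at 2 h, 24 h and 7 d, hypoxia in red and normoxia in blue, with a symbol per hESC line and a bar at the mean of the 3 lines. For SRSF7 and SRSF3 the hypoxia arrays at 7 d lie below the normoxia arrays, while SRSF4 and SRSF11 stay within a narrow band.

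Over the 10 genes the log2 fold changes at 7 d had a median of -0.31, against 0.06 over all features. SRSF3, SRSF6 and SRSF7 were past the thresholds of the study (p under 0.01 before adjustment, with a fold over 1.5) as lower in hypoxia, and 0 as higher. Of all features 0.357% were lower and 0.51% higher by the same thresholds. By fold, SRSF6 at 0.636 was the nearest gene inside and SRSF10 at 0.751 the nearest outside. In the line by line values 6 of the 10 genes were lower in hypoxia in all 3 lines, against 14.2% of all features, and 3 of the 10 had every hypoxia array below every normoxia array, against 4.03%. Since the genes were chosen with this contrast in view, nothing is read from these counts. In bulk RNA, fewer cells with a transcript and less of it per cell cannot be told apart.

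Other measures moved with the 7 d groups. The lower quartile of all features on an array, in log2 units, was 6.09, 5.99 and 6.0 in H9, HS360 and HS401 in hypoxia, against 5.89, 5.90 and 5.98 in normoxia. With this quartile as a covariate the log2 fold change was -0.84 for SRSF7, -0.65 for SRSF3 and -0.58 for SRSF6, and SRSF6 no longer passed the thresholds. The mean log2 intensity of 20 fibroblast markers was 8.86, 8.08 and 8.91 in hypoxia, against 8.30, 8.21 and 8.38 in normoxia, and 17 of the 20 had a positive log2 fold change, with COL1A1 and COL3A1 past the thresholds. The marker mean was higher in hypoxia in H9 and HS401, where SRSF7 differed by -1.26 and -1.03. In HS360 the marker mean was lower in hypoxia, and SRSF7 differed by -0.66 there. With the fibroblast mean as a covariate the fold changes were -0.88 for SRSF7, -0.72 for SRSF3 and -0.51 for SRSF6, and SRSF7 and SRSF3 passed. The part of these measures in the SR values was not tested beyond the covariates. The mean of 14 hESC markers was 9.79 to 10.05 in hypoxia and 9.89 to 10.10 in normoxia at 7 d, and 9.64 to 10.29 over all arrays. Without H9, or without HS401, only SRSF7 passed the thresholds at 7 d, at -0.84 and -0.96. Because the genes were chosen on these 7 d values, passing or not passing here describes the fits and is no test of the genes.

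**Figure D2:**
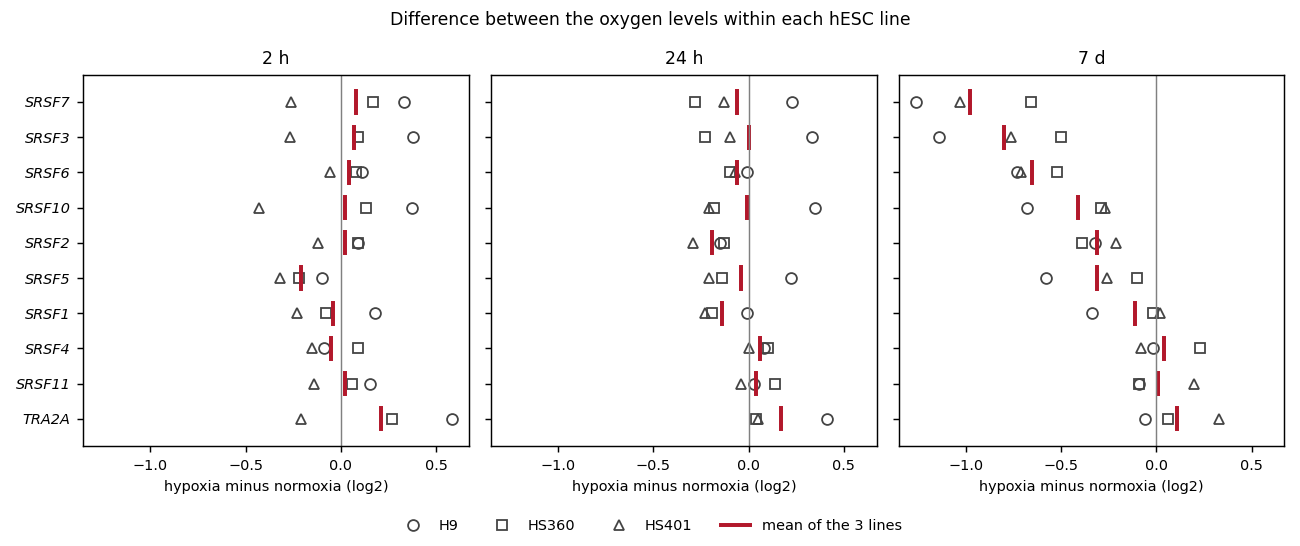
Hypoxia minus normoxia within each hESC line, in log2 units on the horizontal axis, for the 10 SR genes at 2 h, 24 h and 7 d, with a symbol per line and a red bar at the mean of the lines. At 7 d all 3 lines lie left of zero for SRSF7, SRSF3, SRSF6, SRSF10, SRSF2 and SRSF5, whereas at 2 h H9 and HS401 lie on opposite sides for 8 of the 10 genes.

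The same contrast was tested at 2 h and 24 h, whose results were also known when the genes were chosen. At 2 h SRSF7 had 1296, 982 and 891 in H9, HS360 and HS401 in hypoxia, against 1031, 873 and 1068 in normoxia, and at 24 h 1068, 613 and 969 in hypoxia, against 910.2, 744 and 1060.1 in normoxia. SRSF3 had 2504, 1924 and 2048 in hypoxia, against 1924, 1808 and 2469.5 in normoxia at 2 h, and 2195, 1226 and 2336 in hypoxia, against 1746, 1438 and 2504 in normoxia at 24 h. Both genes were higher in hypoxia in H9 and lower in HS401 at each of these times, and the groups overlapped. SRSF6 lay closer together, at 526, 502 and 498 in hypoxia and 530.1, 538 and 523 in normoxia at 24 h.

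At 2 h the log2 fold changes of the 10 genes ranged from -0.21 for SRSF5 to 0.21 for TRA2A, with a median of 0.02 against 0.00 over all features. At 24 h they ranged from -0.19 for SRSF2 to 0.17 for TRA2A, with a median of -0.03, the same as over all features. By limma 0 of the 10 were past the study's thresholds at 2 h, where 0.085% of all features were, and 0 at 24 h, where 0.421% were. All 10 had an adjusted p of 1 from limma at both times, where 0.0% of all features at 2 h and 0.00425% at 24 h passed an adjusted p of 0.05. An unadjusted p under 0.05 was found for 0 of the 10 at either time, against 0.782% of all features at 2 h and 2.7% at 24 h (smallest p among the 10 by limma 0.203 and 0.259). The mean over 2 h and 24 h rests on 6 pairs of cultures. It gave log2 fold changes of 0.01 for SRSF7 (95% interval -0.29 to 0.31), 0.03 for SRSF3 (-0.28 to 0.34) and -0.01 for SRSF6 (-0.26 to 0.24). For the 10 genes it ranged from -0.13 for SRSF5 to 0.19 for TRA2A, and 0 passed the thresholds, against 0.149% of all features, an adjusted p of 0.05, against 0.0382%, or an unadjusted p of 0.05, against 2.53% (limma, adjusted p = 1). The intervals had half-widths of 0.18 to 0.31. Those of SRSF7, SRSF3 and SRSF6 leave room for differences of up to 0.24 in either direction. The intervals of SRSF5 (-0.37 to 0.11) and TRA2A (-0.07 to 0.45) leave more room in 1 direction.

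The hypoxia effect at 24 h minus that at 2 h was tested as well. It ranged over the 10 genes from -0.21 to 0.17, and by limma 0 passed the thresholds, against 0.0892% of all features, with 0 at an unadjusted p under 0.05, against 0.769%, and 0 at an adjusted p under 0.05, against 0.0%. Between 24 h and 2 h the genes differed by -0.28 to 0.17 within hypoxia and by -0.15 to 0.07 within normoxia on the log2 scale. Cultures of these 2 times were of similar total age, so within normoxia the comparison is no time course. By limma 0 passed the thresholds in hypoxia (0.183% of all features) and 0 in normoxia (0.0085%). An unadjusted p under 0.05 was found for 0 of the 10 in hypoxia, against 2.18% of all features, and for 0 in normoxia, against 0.28%. At 24 h 3 of the 10 genes, SRSF1, SRSF2 and SRSF6, were lower in hypoxia in all 3 lines, against 9.65% of all features, with means of -0.14, -0.19 and -0.06, and 1, TRA2A, was higher in all 3, against 8.74%. At 2 h 1 of the 10, SRSF5, was lower in all 3 lines, at -0.21, against 6.17% of all features, and 0 were higher in all 3, against 6.01%. Every hypoxia array was below every normoxia array for 0 of the 10 at 2 h, against 0.769% of all features, and for 0 at 24 h, against 1.01%.

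Ordered by their mean log2 intensity, the 6 groups had the 7 d hypoxia cultures lowest for SRSF2, SRSF3, SRSF6, SRSF7 and SRSF10, and for SRSF8, SRSF9 and TRA2B of the rest of the family. For SRSF2 the step to the next group was 0.19 with overlap, and for SRSF8, SRSF9 and TRA2B it was 0.03 to 0.13 with overlap. For SRSF7 the means from low to high were 8.97 ± 0.26 in 7 d hypoxia, 9.75 ± 0.43 in 24 h hypoxia, 9.81 ± 0.26 in 24 h normoxia, 9.95 ± 0.16 in 2 h normoxia, 9.95 ± 0.04 in 7 d normoxia and 10.03 ± 0.28 in 2 h hypoxia (SD, n = 3 each). The step from 7 d hypoxia to the next group was 0.78, without overlap of the arrays, and every later step was at most 0.14 with overlap. For SRSF3 the same step was 0.67 and for SRSF6 0.54, both without overlap. For SRSF10 it was 0.42, also without overlap. Above that step, neighbouring groups of SRSF3, SRSF6 and SRSF10 overlapped throughout. Groups further up the order also reached into the 7 d hypoxia range through single arrays. These were HS360 in 24 h hypoxia for SRSF3 (1226) and SRSF10 (404), and HS401 in 7 d normoxia for SRSF6 (449). Cultures of 7 d were also older than the others. Their fibroblast marker mean was lower, at 8.08 to 8.91 in hypoxia and 8.21 to 8.38 in normoxia, against 9.12 to 10.24 on the 2 h and 24 h arrays. The parts of culture age and of the fibroblast signal in this order were not tested.

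Of the 18 arrays, 5 stood apart by a low lower quartile over all features, at 5.64 to 5.70 in log2 units against 5.89 to 6.17 on the other 13 arrays. They were H9 in hypoxia at 2 h and 24 h, HS401 in hypoxia at 24 h, and HS401 in normoxia at 2 h and 24 h, so none of them is a 7 d array. At 2 h and 24 h the H9 array in hypoxia, and not its partner in normoxia, was thus among the 5, whereas in HS401 at 2 h only the normoxia array was. SRSF10 had 729, 530.1 and 516 in H9, HS360 and HS401 in hypoxia, against 564, 484 and 695 in normoxia at 2 h, and 626, 404 and 609 in hypoxia, against 491, 458 and 704 in normoxia at 24 h. TRA2A had 855, 644 and 626 in hypoxia, against 572, 534 and 724 in normoxia at 2 h, and 695, 478 and 781 in hypoxia, against 523, 465 and 755 in normoxia at 24 h. For both genes the 5 arrays held the 5 highest of the 18 values. In log2 units, in the pairs where 1 array was among the 5, SRSF10 differed by 0.37 in H9 at 2 h, 0.35 in H9 at 24 h and -0.43 in HS401 at 2 h, hypoxia minus normoxia. TRA2A differed by 0.58, 0.41 and -0.21 in those pairs. With each line centred on its mean, the correlation with the lower quartile over the 18 arrays was -0.90 for SRSF10 (Spearman -0.93), -0.77 for TRA2A (-0.79), -0.76 for SRSF3 (-0.83) and -0.70 for SRSF7 (-0.71). The other genes lay between -0.63 for SRSF1 and 0.37 for SRSF4. These correlations are descriptions over arrays that share lines and a normalization, and the part of the lower quartile in the values was not tested beyond the covariate. Without the 5 arrays the 24 h hypoxia group rests on the HS360 array alone, and the median log2 fold change of the 10 genes at 24 h was -0.19. SRSF7 then had -0.42 at 24 h (standard error 0.24, adjusted p = 0.750 from limma), against -0.06 with all arrays, and SRSF3 had -0.38 (standard error 0.23, adjusted p = 0.765), against 0.00.

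**Figure D3:**
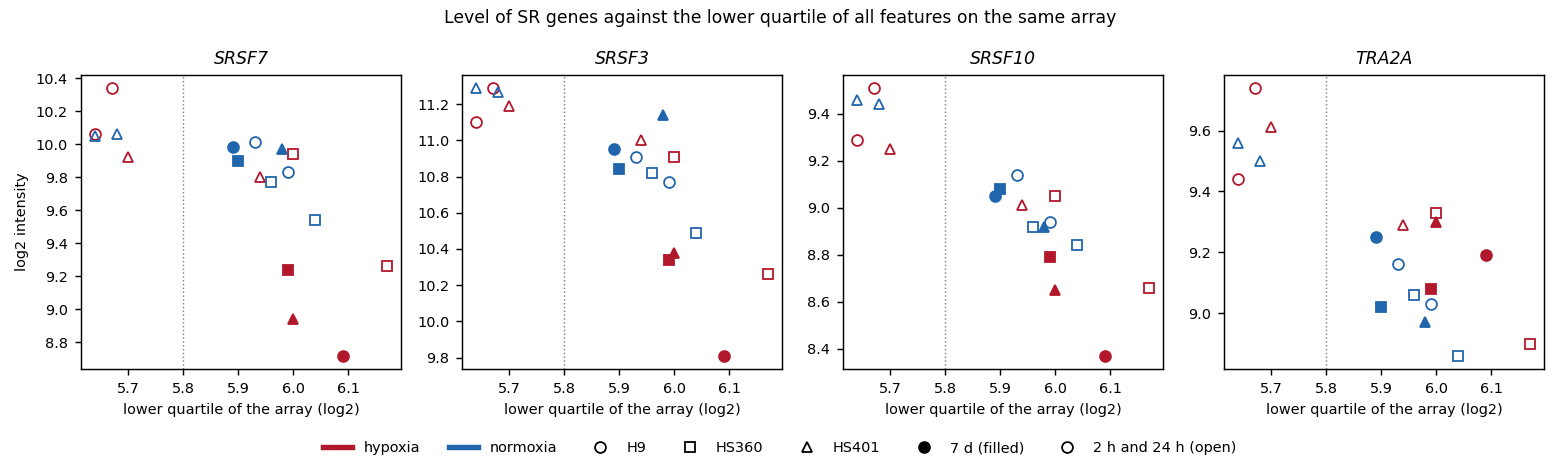
Log2 intensity of SRSF7, SRSF3, SRSF10 and TRA2A against the lower quartile of all features on the same array, both in log2 units, hypoxia in red and normoxia in blue, with filled symbols for 7 d. The 5 arrays left of the dotted line at 5.8 carry the 5 highest values of SRSF10 and of TRA2A, and the filled red symbols of SRSF7 lie below all other arrays.

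Among the genes themselves, SRSF3 and SRSF7 had the closest profiles. With each line centred on its mean, their correlation was 0.99 over the 18 arrays (Spearman 0.95) and 0.98 over the 12 arrays at 2 h and 24 h (Spearman 0.98). SRSF10 followed SRSF7 with 0.91 over 18 arrays and 0.90 over the 12, and SRSF3 with 0.93 and 0.90. SRSF6 and SRSF7 correlated at 0.90 over 18 arrays and at 0.55 over the 12 without the 7 d cultures. SRSF4 went the other way from SRSF2, at -0.73 over 18 arrays and -0.12 over the 12. The arrays share lines, the lower quartile differences above and the 7 d contrast, so these are descriptions.

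By the same measure, the named features most like SRSF7 over the 18 arrays were SRSF3 (0.991), POGLUT1 (0.969), MED17 (0.961), CUL1 (0.948), YAE1 (0.945), RBM23 (0.944), INTS14 (0.938) and SMARCA1 (0.935). At 7 d their log2 fold changes ranged from -0.49 for CUL1 to -1.09 for POGLUT1, which encodes an O-glucosyltransferase acting on NOTCH receptors. Most like the mean profile of the 10 genes were KANSL2 (0.965), TUBGCP5 (0.961), IPO11 (0.955), the splicing factor CDC5L (0.954), INTS14 (0.949), CLSPN (0.948), TMEM184C (0.948) and HNRNPA2B1 (0.948). Their log2 fold changes at 7 d lay between -0.32 for TUBGCP5 and -0.61 for INTS14. Both rankings used the 7 d arrays that chose the members, so lower 7 d values were built into them. Nothing is read from these fold changes.

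Differences between the 3 hESC lines were tested over all 18 arrays. The 6 arrays of a line differ in oxygen and time and come from 1 line. Line p-values, here and for SRSF9 below, therefore concern these cultures only. SRSF2 intensities in HS401 were 1068 to 1783 with a median of 1519.7, against 1618 to 2062 with a median of 1979 in H9 (6 arrays each). The ranges overlapped. The log2 difference of HS401 from H9 was -0.41 (95% interval -0.65 to -0.16, adjusted p = 0.0354 from limma), and SRSF2 was 1 of the 10 genes past an adjusted p of 0.05, where 10.1% of all features were. Before adjustment 2 of the 10 had a p under 0.05, against 21.8%. This call was lost in 3 alternatives, with the arrays centred on their median (-0.36, adjusted p = 0.126 from limma), without the 5 arrays (-0.60, adjusted p = 0.0689) and with the fibroblast mean as a covariate (-0.34, adjusted p = 0.0822). Between HS401 and HS360 0 of the 10 passed an adjusted p of 0.05 by limma, against 13.4% of all features, and 3 had an unadjusted p under 0.05, against 35.9%. SRSF3 was nearest, 0.44 higher in HS401 (95% interval 0.12 to 0.75, adjusted p = 0.0602 from limma). Between HS360 and H9 0 passed by limma, against 3.34%, with 0 at an unadjusted p under 0.05, against 18.6%.

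SRSF8, SRSF9, SRSF12 and TRA2B are the other SR family genes with a feature. At 7 d their log2 fold changes were -0.15, -0.10, -0.08 and -0.13, each with a standard error of 0.12 or 0.13, and none passed the study's thresholds at any time by limma. TRA2B, the close relative of TRA2A, had 1152, 1269.5 and 1278 in 7 d hypoxia, against 1379.6, 1269.5 and 1409 in normoxia. SRSF12 over 2 h and 24 h was 0.20 higher in hypoxia (95% interval 0.02 to 0.38, adjusted p = 1 from limma). Its p before adjustment was 0.0338 from limma, and 2.53% of all features had one under 0.05. SRSF12 intensities of 81.6 to 137.2 lay below the median of all features on every array. Between lines SRSF9 was higher in HS401 than in H9 by 0.44 (adjusted p = 0.0033 from limma) and than in HS360 by 0.41 (adjusted p = 0.00586).

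Some features are near copies of SR family genes, and array probes may cross-hybridise between them. LOC100132715, described in the study's table of changed genes as similar to SRSF3, had 218, 231 and 201 in 7 d hypoxia, against 333, 396 and 307 in normoxia, without overlap and with a log2 fold change of -0.67 (standard error 0.19). SRSF6P2, an SRSF6 pseudogene, had 47.5, 53.4 and 41.9 in hypoxia, against 58.9, 69.1 and 53.8 in normoxia, with a log2 fold change of -0.35 (standard error 0.18). Both were lower in hypoxia, as were SRSF3 and SRSF6. LOC100132715 was found through a list of changed genes, so nothing is read from its direction. SRSF6P2 lay at 41.9 to 84.4 over the 18 arrays, below the median of all features on every array, and its direction is not read either. SRSF8BP, by its name a copy of SRSF8, which is not a member, had intensities of 5.5 to 13.8 over the 18 arrays. They lay far below the median of all features on every array (131.6 to 160.9). Its log2 fold change at 7 d was 0.6 (standard error 0.28), higher in hypoxia.

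Genes that act on SR proteins were followed in a list of 14 kinases, phosphatase subunits and importers. At 7 d 0 of the 14 passed the study's thresholds. CLK3, which phosphorylates SR proteins in the nucleus, had a log2 fold change of 0.50 (standard error 0.14, adjusted p = 0.413 from limma), below the fold threshold. TOP1, DNA topoisomerase I with an SR protein kinase activity, had -0.48 (standard error 0.16, adjusted p = 0.487 from limma). CLK1, CLK2 and CLK4 had 0.25, -0.09 and 0.34 at 7 d, and 0.27, 0.14 and 0.46 at 24 h, with none past the thresholds.

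Across the 9 lists of RNA processing genes, 185 genes in all, 0 passed the study's thresholds by limma at 2 h, against 0.085% of all features, or at 24 h, against 0.421%. An unadjusted p under 0.05 was found for 0 of them at 2 h, against 0.782% of all features, and for 4 at 24 h, against 2.7%. At 7 d 1 was lower in hypoxia, against 0.357%, and 0 higher, against 0.51%, and 15 had an unadjusted p under 0.05, against 7.1% of all features, with 0 at an adjusted p under 0.05, against 0.0212%. The median log2 fold change of the 185 was -0.08. PCF11, a subunit of the cleavage machinery at the 3' end of mRNA, was the 1 past the thresholds, at -0.88 (standard error 0.26, adjusted p = 0.446 from limma). RBM23, an SR-related RNA binding protein, had -0.51 (standard error 0.12, adjusted p = 0.311), HNRNPH3 of the hnRNP family -0.58 (standard error 0.17, adjusted p = 0.44), and the branch point binding protein SF1 -0.38 (standard error 0.15, adjusted p = 0.615), all from limma. ZRSR2, a U2AF1 relative of the minor spliceosome, had 0.41 (standard error 0.12, adjusted p = 0.458 from limma). The 32 SR-related genes had a median of -0.13, the 27 hnRNP genes and the 28 snRNP core genes -0.08 each, and the 25 tissue regulators 0.00. In nonsense-mediated decay and the exon junction complex, the list with UPF2 (-0.29) and SMG8 (-0.42), 0 of 14 passed and the median was -0.07.

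**Figure D4:**
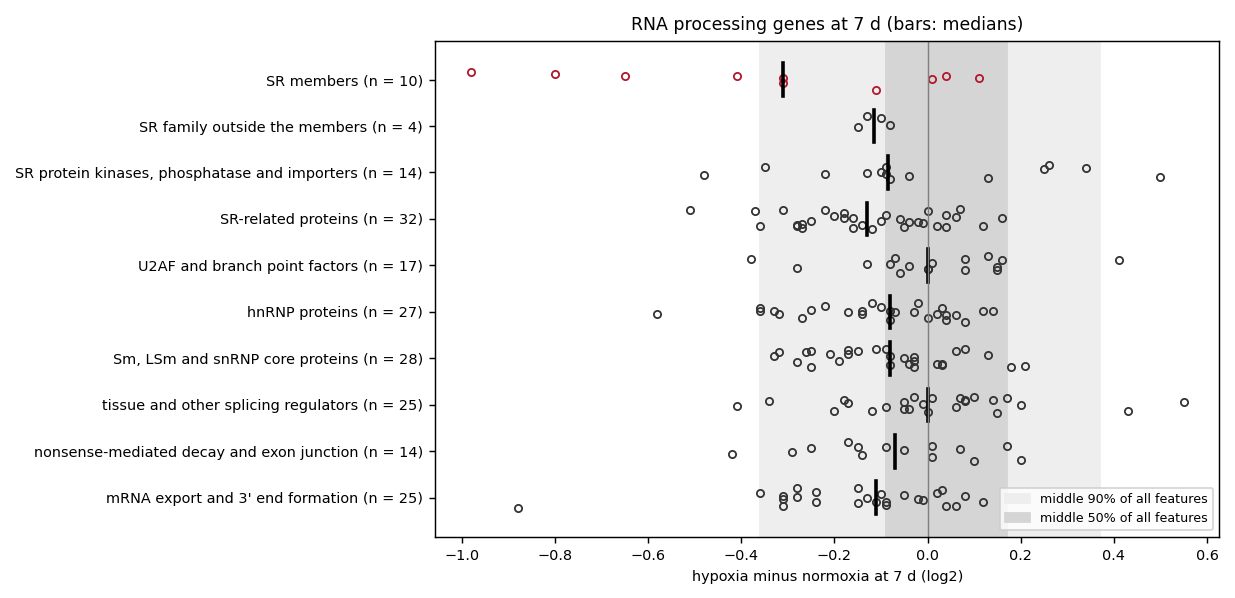
Hypoxia minus normoxia at 7 d in log2 units on the horizontal axis for each gene of the SR members (red) and of 9 lists of RNA processing genes (black), with a bar at the median of each list and grey bands for the middle 50% and 90% of all features. SRSF7, SRSF3, SRSF6 and SRSF10 lie left of the outer band, together with PCF11 and a few single genes of other lists.

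Of 16 hypoxia-responsive genes counted by the same thresholds, 9 were higher in hypoxia at 2 h, 11 at 24 h and 8 at 7 d. Over all 23536 features 17 were higher at 2 h, 89 at 24 h and 120 at 7 d. This list was chosen with results of these data known, so the counts are no independent check of the oxygen labels. DDIT4, an inhibitor of mTOR signalling, had a log2 fold change of 1.79 at 2 h and 1.43 at 7 d.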

How the data were processed

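Human Exon arrays, 18 in all, held RNA of 3 hESC lines in hypoxia or normoxia. The authors made the intensity values with RMA in Chipster, which corrects background, quantile-normalizes and sums up the probes of a gene, here grouped by Entrez gene through a custom annotation. Tool versions are not given in the sources used here. The deposited intensity values are linear, and in log2 they move in steps of 0.01. All tests used the log2 of the deposited values for all 23536 features, of which 20727 had a symbol in the platform table. No 2 arrays held identical values.

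Group means of the 6 groups were fitted with limma 3.58.1 in R 4.3.3 on all 18 arrays, with the hESC line as a fixed block (10 residual and 4.24 prior degrees of freedom). P-values were adjusted over all features (Benjamini-Hochberg, threshold 0.05), and the thresholds of the study were p under 0.01 before adjustment with a fold over 1.5. The line pairs the cultures. After removal of the group means, hypoxia and normoxia arrays of 1 line and time correlated across features above 0.1 in 8 of 9 pairs (-0.00534 to 0.776). The block of the main fit held the line but not each pair of line and time. With the 9 pairs as the block the standard errors at 7 d were smaller, at 0.16 for SRSF7, 0.17 for SRSF3 and 0.10 for SRSF6. The fit was run on simulated data with seeded changes at 24 h that were larger than those of the SR genes at that time. Those data held a line effect but no further correlation within pairs, so the run does not check the pairing or small changes.

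The 10 members and all gene lists were chosen with earlier results of these data known, and the members with the 7 d contrast in view. Named genes were the members, the rest of the family and near copies of family genes. From each other list up to 4 genes past the study's thresholds were named, or otherwise the 2 largest changes. Also named were the 8 features most like SRSF7 and the 8 most like the mean of the members. Alternatives were no block, the line as a random block, pairs as a block, single time points, a second quantile normalization, median centring, features above the median level, eBayes with trend and robust, covariates (the lower quartile, or the fibroblast marker mean), leaving out the 5 arrays with a low lower quartile, and each line left out. The promoters are RefSeq sequences of GRCh38.p14.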

Additional observations from a re-analysis of the deposited data

How the results depend on the processing

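The 3 SR genes past the study's thresholds at 7 d were also 3 with no replicate block, and the log2 fold changes were then the same, with standard errors of 0.21 for SRSF7, 0.25 for SRSF3 and 0.18 for SRSF6. Over all features leaving out the block gave 63 higher and 47 lower at 7 d, against 120 and 84 with it. Over all alternatives these counts ranged from 63 to 221 higher and from 47 to 187 lower. With one line left out in turn the count of SR genes was 1 to 3, and SRSF7 was the 1 that passed without H9 and without HS401. All these fits used the 7 d arrays on which the genes were chosen, so no support is drawn from the counts of SR genes. Median centring or a second quantile normalization moved the median of all features at 7 d to 0.02, from 0.06.

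No SR gene passed the study's thresholds at 2 h, 24 h or over both under any alternative run, although values moved. Without the 5 arrays of low lower quartile the median at 24 h was -0.19, with -0.42 for SRSF7 (standard error 0.24) and -0.38 for SRSF3 (standard error 0.23) on the HS360 hypoxia array alone, the 2 h values were 0.07 for SRSF1, -0.03 for SRSF3 and -0.06 for SRSF11, and the values over 2 h and 24 h were 0.03 for SRSF2 and -0.21 for SRSF3 and for SRSF7. With the fibroblast covariate the 2 h values were -0.05 for SRSF2 and SRSF6 and -0.04 for SRSF10, and SRSF7 over 2 h and 24 h was -0.03. With the lower quartile covariate the last was -0.02, and TRA2A was 0.23 at 2 h (standard error 0.09) and 0.17 over 2 h and 24 h (standard error 0.06, adjusted p = 0.584 from limma). Median centring gave 0.01 for SRSF10 at 24 h and 0.01 for SRSF6 over 2 h and 24 h. With one line left out in turn the values changed sign at 2 h for SRSF1 (-0.15 to 0.05), SRSF2 (-0.02 to 0.09), SRSF3 (-0.09 to 0.23), SRSF7 (-0.05 to 0.25), SRSF10 (-0.15 to 0.25) and SRSF11 (-0.04 to 0.11). They did so at 24 h for SRSF5 (-0.18 to 0.04), SRSF7 (-0.20 to 0.05) and SRSF10 (-0.20 to 0.08), and over 2 h and 24 h for SRSF3 (-0.13 to 0.14), SRSF6 (-0.04 to 0.02) and SRSF7 (-0.13 to 0.11).

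Between HS401 and H9 the count of SR genes at an adjusted p under 0.05 was 1, and it was 2 with a second quantile normalization, 3 with the lower quartile covariate, and 0 with median centring, without the 5 arrays or with the fibroblast covariate. Between HS401 and HS360 it was 0, and it was 2 with a second quantile normalization and 1 each with the features above the median level, with trend and robust, and with the lower quartile covariate. The causes were not tested. The number of arrays limits all intervals.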
